A study of Mus musculus with 4 samples.

Results

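Genes of skeletal muscle were read in 4 mouse livers, and they were abundant in 1 liver of each treatment group and close to absent in the other. The set holds 43 of the 21959 genes in the deposited table. Its members were chosen by symbol, from a list drawn up with the read counts of these same livers known, so the levels below are a description and the high counts themselves are not a finding. All 4 livers were wild type and carried acute-on-chronic liver failure, abbreviated ACLF, in which an acute insult strikes a liver already diseased. Livers baicalein 1 and baicalein 2 were from ACLF mice given baicalein, a plant flavone, and livers saline 1 and saline 2 were from ACLF mice given saline. No healthy liver was analysed here, and the labels give no dose, age, sex or time of collection. They number the livers but do not state whether the numbers stand for separate animals, so the spread and p-values cover these samples only, and some of that spread may be technical.

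Skeletal muscle fibres contract when myosin thick filaments pull on actin thin filaments, a step that calcium released from internal stores switches on through troponin. Fibres come in fast and slow kinds, which use different genes for the same protein: slow fibres carry Myh7 myosin, and fast fibres carry Myh2 (type IIa), Myh1 (type IIx) or Myh4 (type IIb) myosin, in rising order of speed and of reliance on glycolysis. Hepatocytes and the other resident cells of liver do not build sarcomeres, so RNA of these genes is not a usual component of a liver library.

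The deposited counts summed to 13976440 to 18731616 per liver, and the 2 livers of a group differed by more than sampling noise (chi-square per degree of freedom of 18.7 for baicalein and 23.4 for saline). Hepatocyte genes were abundant in every liver: 9 of them, among them Alb, Apoa1 and Cps1, summed to 117766 and 100559 CPM (read counts scaled to a common, normalised library size) in the baicalein livers and 86978 and 82731 CPM in the saline livers. Baicalein 2 and saline 1 stand apart from the other livers in the muscle genes. The treatment groups also differed in 4 Y-linked genes, which summed to 2 and 1 counts in the baicalein livers, against 820 and 836 in the saline livers, so treatment and sex cannot be told apart in any difference between the groups.

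The 43 members together held 244 counts in baicalein 1 and 65755 in baicalein 2, against 154046 in saline 1 and 251 in saline 2. They made up 0.00165% of all counts in baicalein 1 (95% exact binomial interval 0.00145 to 0.00187%) and 0.351% in baicalein 2 (0.348 to 0.354%). In saline 1 they made up 0.872% (0.867 to 0.876%) and in saline 2 0.00180% (0.00158 to 0.00203%). These intervals cover counting error only. In summed CPM, baicalein 2 was 196 times baicalein 1, and saline 1 was 495 times saline 2, so the spread inside each group was far wider than any gap between groups. In bulk RNA, fewer muscle cells and less RNA per muscle cell cannot be told apart.

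**Figure D1:**
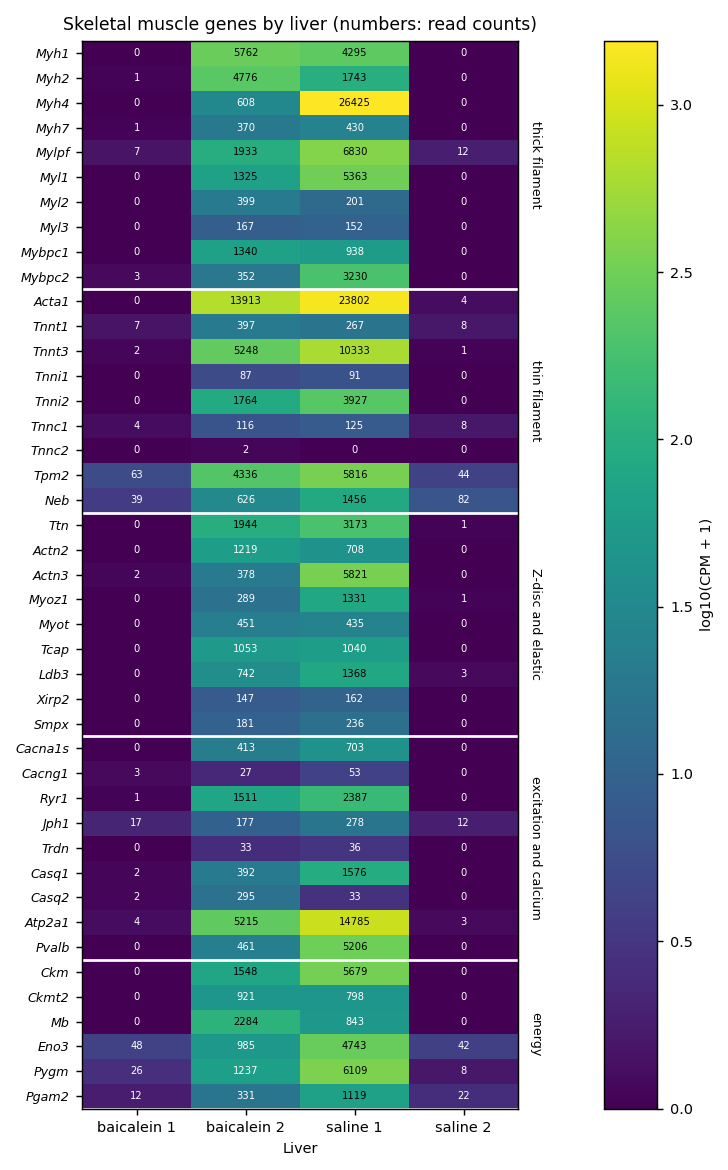
Colour gives log10(CPM + 1) of each of the 43 members (rows, by role) in the 4 livers (columns), and the number in each cell is the deposited read count. Baicalein 2 and saline 1 are brighter than baicalein 1 and saline 2 in nearly all rows, Tnnc2 being dark throughout. Rows of low members such as Trdn and Cacng1 are dim in all livers, and 20 members have no count in either baicalein 1 or saline 2.

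Fewer members had any count in baicalein 1 and saline 2, and those counts were low. Baicalein 1 had at least 1 count of 19 members and saline 2 of 15, against 43 in baicalein 2 and 42 in saline 1. No count in baicalein 1 or saline 2 was found for 20 members, among them Ckm, Mb, Myh1, Myh4, Myl1, Tnni2, Pvalb and Tcap. A count of 0 allows up to 3 counts, or 0.206 CPM in baicalein 1 and 0.219 CPM in saline 2. Most of what remained there lay in Neb, Tpm2, Eno3, Pgam2, Pygm and Jph1, which held 205 of the 244 member counts in baicalein 1 and 210 of 251 in saline 2. Several of these are used outside skeletal muscle, such as Tpm2, a tropomyosin of smooth muscle too, and Eno3, a glycolytic enolase. A separate list of 6 members used outside muscle held Tpm2, Eno3, Jph1, Pygm, Tnnt1 and Ldb3, and left Neb and Pgam2 in. Without that list, the other 37 summed to 83 counts in baicalein 1 and 57881 in baicalein 2. They summed to 135465 in saline 1 and 134 in saline 2, where Neb held 82.

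Within each group, only 6 members had at least 10 counts in both livers, so few ratios could be taken. In baicalein these were Tpm2, Neb, Jph1, Eno3, Pygm and Pgam2, and in saline Mylpf took the place of Pygm. The CPM ratio of baicalein 2 over baicalein 1 had a median of 17.5 and ran from 7.55 to 49.9. For saline 1 over saline 2 the median was 66.0, within 14.3 to 459. This filter leaves out members at or near 0 in the low liver. Both medians lay below the summed ratios of 196 for baicalein and 495 for saline. Members without a count in the low liver give only lower bounds. Against a floor of 3 counts in the low liver, Acta1 was at least 3365-fold higher in baicalein 2 than in baicalein 1. On the same floor, Myh4 was at least 7100-fold and Ckm at least 1526-fold higher in saline 1 than in saline 2.

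Among thick filament genes, Myh4 set the muscle-bearing livers furthest apart. Myh4, the type IIb myosin heavy chain, had 0 and 608 counts in baicalein 1 and 2, against 26425 and 0 in saline 1 and 2. Myh1, the type IIx heavy chain, had 0 and 5762 counts in the baicalein livers, against 4295 and 0 in the saline livers. Myh2, the type IIa heavy chain, had 1 and 4776 counts in the baicalein livers, against 1743 and 0 in the saline livers. Myh4 was thus the leading heavy chain in saline 1, whereas Myh1 and Myh2 led in baicalein 2. Myh7, the slow heavy chain, was low in both, with 1 and 370 counts in the baicalein livers and 430 and 0 in the saline livers. In the deposited table's own coordinates, which name no build, Myh2 (67061853 to 67088343), Myh1 (67090878 to 67115401) and Myh4 (67128855 to 67151272) follow each other on the plus strand of chromosome 11. They are close in sequence, and no source used here tells how reads shared between them were assigned, which leaves each heavy chain's value uncertain.

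On the length-scaled FPKM values, the make-up of the 4 heavy chains differed between these libraries. Myh4 took 5.88% of their summed FPKM in baicalein 2, against 81.9% in saline 1. Myh1 took 52.7% in baicalein 2 and 12.6% in saline 1, and Myh2 took 38.9% in baicalein 2 and 4.55% in saline 1. Myh7 was the smallest share in both, at 2.50% in baicalein 2 and 0.931% in saline 1. The order was Myh1, Myh2, Myh4, Myh7 in baicalein 2 and Myh4, Myh1, Myh2, Myh7 in saline 1. By counts, Myh4 was 5.28% (95% exact interval 4.88 to 5.70%) in baicalein 2 and 80.3% (79.9 to 80.8%) in saline 1. Each of these is 1 library, so the difference has no replicate check and says nothing of treatment.

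**Figure D2:**
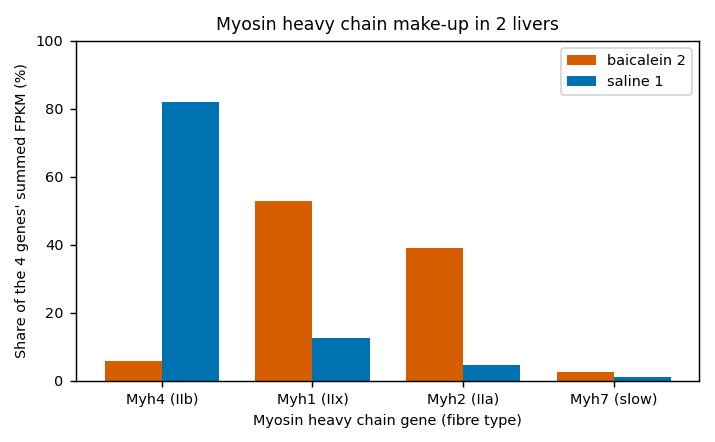
Bars give each myosin heavy chain gene as a percentage of the summed FPKM of the 4 genes, in baicalein 2 and in saline 1; the other livers had at most 1 count of any of them. Myh4 makes up 81.9% in saline 1 and 5.88% in baicalein 2, where Myh1 and Myh2 make up 52.7% and 38.9%.

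Among light chains and myosin binding proteins, the fast forms were lower in baicalein 2 than in saline 1, and the slow forms were near its level or above it. Mylpf, the fast regulatory light chain, had 7 and 1933 counts in the baicalein livers, against 6830 and 12 in the saline livers. Myl1, the fast essential light chain, had 0 and 1325 counts in the baicalein livers and 5363 and 0 in the saline livers. Both were several times higher in saline 1 than in baicalein 2. Of their slow counterparts, Myl2 had 0 and 399 counts in the baicalein livers and 201 and 0 in the saline livers, and Myl3, whose ratio between the high livers spans 1 within counting error, had 0 and 167 against 152 and 0. Mybpc2, the fast binding protein that steadies the thick filament, had 3 and 352 counts in the baicalein livers and 3230 and 0 in the saline livers. Mybpc1, the slow one, had 0 and 1340 counts in the baicalein livers and 938 and 0 in the saline livers.

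Thin filament genes included the most abundant members per length. Acta1 (chromosome 8, 124618508 to 124621490 in the table), the skeletal muscle actin, had 0 and 13913 counts in the baicalein livers, against 23802 and 4 in the saline livers, or 484 FPKM in baicalein 2 and 877 FPKM in saline 1. Tnnt3, fast troponin T, had 2 and 5248 counts in the baicalein livers and 10333 and 1 in the saline livers. Tnni2, fast troponin I, had 0 and 1764 counts in the baicalein livers and 3927 and 0 in the saline livers. All 3 were higher in saline 1 than in baicalein 2. The slow troponins were low in both: Tnnt1 had 7 and 397 counts in the baicalein livers and 267 and 8 in the saline livers, Tnni1 had 0 and 87 against 91 and 0, and Tnnc1, the troponin C of slow and heart muscle, had 4 and 116 against 125 and 8. Tpm2 had 63 and 4336 counts in the baicalein livers and 5816 and 44 in the saline livers, and Neb, the giant ruler protein of the thin filament, had 39 and 626 against 1456 and 82.

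Tnnc2, fast troponin C, broke the pattern of its partners. It had 0 and 2 counts in the baicalein livers and 0 in both saline livers, although Tnnt3 and Tnni2, whose proteins form 1 complex with it, had over 1000 counts in each of the muscle-bearing livers. In the GENCODE M21 annotation of mm10, 74.0% of the 800 exon bases of Tnnc2 lie inside exons of other genes, mostly of Ube2c, the largest such share among the 43 members. Ube2c, a ubiquitin-conjugating enzyme of the cell cycle, had 17 and 27 counts in the baicalein livers and 52 and 33 in the saline livers. Whether reads of Tnnc2 were dropped or moved in counting was not tested. Over 10% of exon bases were shared in 6 members, among them 31.9% for Mb, 21.9% for Atp2a1, 15.5% for Ckm and 13.3% for Myh7, beside Cacna1s.

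The promoters of Acta1 and Myh4 are shown because these 2 genes were the most abundant members by count in saline 1, and because they differ in how the muscle-bearing livers rank them; Myh4 was picked for display after its values were seen. The 250 bases before the annotated start (RefSeq, build GRCm38.p6) are printed 5′ to 3′ along the gene, with matches to the CArG box (bound by serum response factor), the MEF2 site and TATAAA in capitals. Acta1 lies on the minus strand at chr8:123894776-123895025 and Myh4 on the plus strand at chr11:67237562-67237811.
Acta1: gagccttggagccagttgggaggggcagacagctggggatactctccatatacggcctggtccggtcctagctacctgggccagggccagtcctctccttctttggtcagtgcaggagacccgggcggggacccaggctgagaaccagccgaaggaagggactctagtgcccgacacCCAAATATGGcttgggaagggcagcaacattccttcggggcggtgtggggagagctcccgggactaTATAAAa
Myh4: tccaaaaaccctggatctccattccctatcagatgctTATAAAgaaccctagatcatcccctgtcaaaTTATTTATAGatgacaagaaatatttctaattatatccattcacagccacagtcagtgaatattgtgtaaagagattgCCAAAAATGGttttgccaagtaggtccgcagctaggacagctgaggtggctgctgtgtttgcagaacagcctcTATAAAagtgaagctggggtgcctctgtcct

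Acta1 held 1 CArG box, beginning 73 bases before the start, and 1 TATAAA. Myh4 held 1 CArG box beginning 104 bases before the start, 1 MEF2 site beginning 182 bases before it, and 3 matches to TATAAA on either strand, of which the one beginning 179 bases before the start overlaps the MEF2 site. The table gave 40 promoters for 33 of the members, each searched over 300 bases on both strands. A CArG box was found in 5 of the 40 (12.5%), which belong to 4 genes, and in 1.63% of all 32851 promoters. A MEF2 site was found in 7 of 40 (17.5%) and in 3.19% of all promoters, TATAAA in 17.5% and 13.6%, and the E-box CANNTG, the motif of MyoD family factors, in 82.5% and 72.3%. A match is a string of letters and not a known binding site.

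Genes of the Z-disc and the elastic filament differed by member. Actn3, the alpha-actinin of fast fibres, had 2 and 378 counts in the baicalein livers, against 5821 and 0 in the saline livers. Actn2, the alpha-actinin of all fibres and of heart, had 0 and 1219 counts in the baicalein livers and 708 and 0 in the saline livers. So the fast form was lower and the general form higher in baicalein 2 than in saline 1. Myoz1, a Z-disc protein of fast fibres, had 0 and 289 counts in the baicalein livers and 1331 and 1 in the saline livers. Ttn, the giant spring of the sarcomere, had 0 and 1944 counts in the baicalein livers and 3173 and 1 in the saline livers, and the Z-disc adaptor Ldb3 had 0 and 742 against 1368 and 3. Tcap, which caps titin, was near level, with 0 and 1053 counts in the baicalein livers and 1040 and 0 in the saline livers. Myot, Xirp2 and Smpx, at 147 to 451 counts in baicalein 2 and 162 to 435 in saline 1, had none in baicalein 1 or saline 2.

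All 9 genes of excitation and calcium handling had counts in both muscle-bearing livers. Atp2a1, the calcium pump of fast fibres, had 4 and 5215 counts in the baicalein livers, against 14785 and 3 in the saline livers. Ryr1, the calcium release channel, had 1 and 1511 counts in the baicalein livers and 2387 and 0 in the saline livers, and Cacna1s, its voltage sensor, had 0 and 413 against 703 and 0. The calsequestrins, which bind calcium in the store, differed in direction. Casq1, fast calsequestrin, had 2 and 392 counts in the baicalein livers and 1576 and 0 in the saline livers, while Casq2, the slow and heart form, had 2 and 295 counts in the baicalein livers and 33 and 0 in the saline livers. Casq2 was the member most shifted towards baicalein 2. Pvalb, a calcium buffer of the fastest fibres, had 0 and 461 counts in the baicalein livers and 5206 and 0 in the saline livers. Cacng1, Jph1 and Trdn, which encode a channel subunit and proteins of the junction between membrane and store, had 27 to 177 counts in baicalein 2 and 36 to 278 in saline 1.

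Among energy genes, glycolytic members and myoglobin ran opposite ways. Pygm, the glycogen phosphorylase of muscle, had 26 and 1237 counts in the baicalein livers, against 6109 and 8 in the saline livers. Eno3 had 48 and 985 counts in the baicalein livers and 4743 and 42 in the saline livers, and Pgam2, the phosphoglycerate mutase of muscle, had 12 and 331 against 1119 and 22. Ckm, the cytosolic creatine kinase, had 0 and 1548 counts in the baicalein livers and 5679 and 0 in the saline livers. By CPM, baicalein 2 was below saline 1 in all 4, with saline 1 at 3.98 (Pgam2) to 5.82 (Pygm) times its level. Mb, the oxygen store of oxidative fibres, had 0 and 2284 counts in the baicalein livers and 843 and 0 in the saline livers, so it was higher in baicalein 2. Ckmt2, the mitochondrial creatine kinase, was near level, with 0 and 921 counts in the baicalein livers and 798 and 0 in the saline livers.

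Over the members, the ratio of CPM in baicalein 2 to CPM in saline 1 was therefore not 1 factor. Of 42 members with at least 10 counts in both, 8 were higher in baicalein 2 and 34 were lower, with a median log2 ratio of -0.92. The ratio ran from a log2 of -5.68 for Myh4 to 2.92 for Casq2. The 13 fast genes with a ratio had a median log2 of -2.24, with 2 (Myh1 and Myh2) higher in baicalein 2. The 8 slow genes had a median log2 of 0.09, with 4 higher and 4 lower. For Myh4 the ratio was 0.0195 (95% counting interval 0.0180 to 0.0212), for Acta1 0.496 (0.486 to 0.507), for Mb 2.30 (2.12 to 2.49) and for Casq2 7.59 (5.28 to 11.2). The intervals of Ckmt2, Myl3, Myot, Tnni1, Tnnc1 and Trdn span 1. These ratios compare single libraries from different groups, so liver, treatment and sex cannot be told apart in them.

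**Figure D3:**
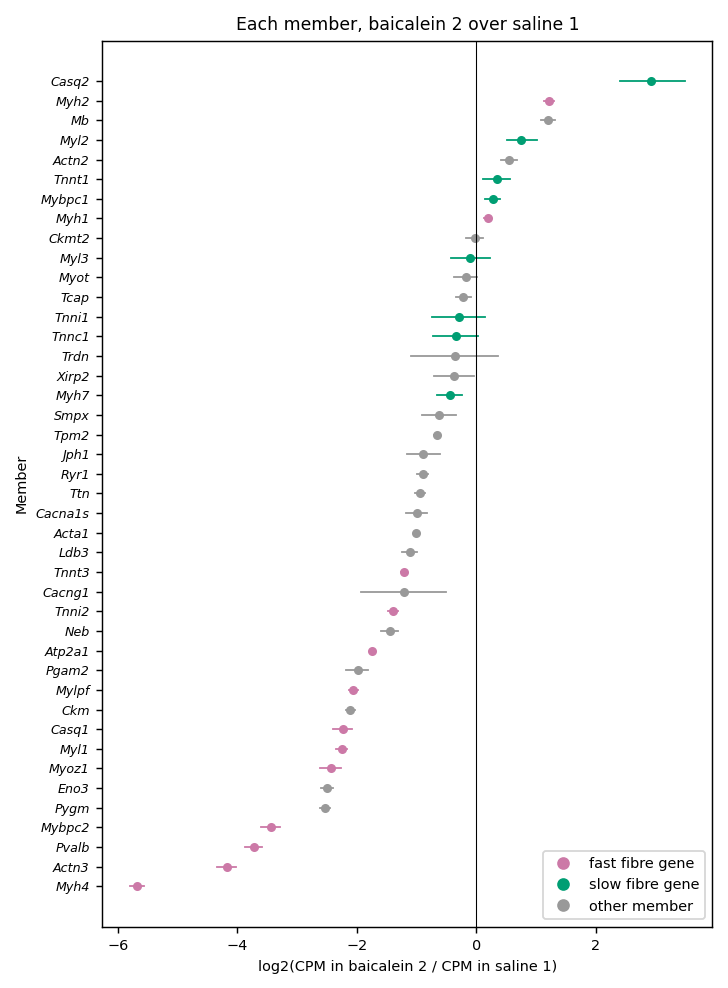
Each point is the log2 ratio of CPM in baicalein 2 to CPM in saline 1 for 1 member, with its 95% counting interval, for the 42 members with at least 10 counts in both livers. Fast fibre genes reach the low end at Myh4 (-5.68), slow fibre genes lie between -0.45 and 2.92, and the zero line marks equal CPM.

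Fast genes outweighed slow genes in both muscle-bearing livers. Summed over 14 fast and 8 slow members, fast FPKM was 10.6 times slow FPKM in baicalein 2, against 52.1 times in saline 1. The fast share of this FPKM was 91.4% in baicalein 2 and 98.1% in saline 1. In baicalein 1 and saline 2 it was 59.8% and 54.1%, but on 35 and 33 counts in all, so the exact interval of the count share ran from 42.1 to 76.1% in baicalein 1 and from 33.5 to 69.2% in saline 2. Among 7 proteins with a fast and a slow gene, the fast gene held a smaller part of the pair's FPKM in baicalein 2 than in saline 1 for 6. The gap was widest for myosin binding protein C (24.8% in baicalein 2 and 81.2% in saline 1), then calsequestrin (65.1% in baicalein 2 and 98.5% in saline 1), and narrowest for troponin I, encoded by Tnni2 and Tnni1. Troponin C, with nearly no Tnnc2 counts, was the exception.

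**Figure D4:**
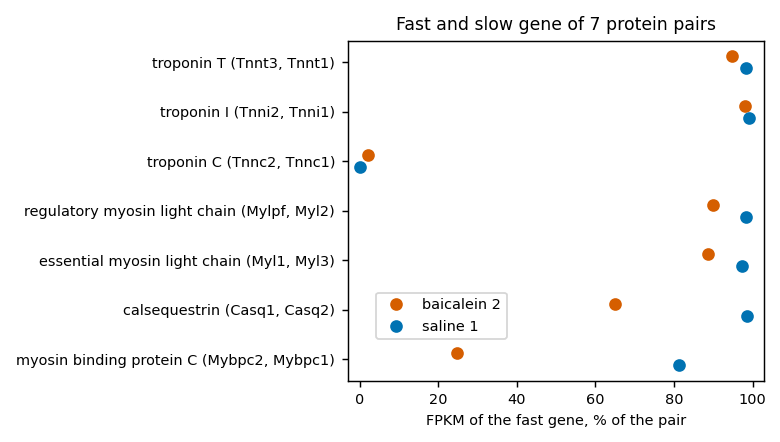
Points give the FPKM of the fast gene as a percentage of the pair's FPKM for 7 proteins (fast and slow gene in brackets) in baicalein 2 and saline 1. The baicalein 2 point lies left of the saline 1 point in 6 pairs, and troponin C sits near 0 in both because Tnnc2 had at most 2 counts.

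The labels' own comparison, baicalein against saline without a block, called no member. Across all 12657 tested genes, the baicalein livers were higher in 968 (7.65%) and lower in 1000 (7.90%), by edgeR's quasi-likelihood test with Benjamini-Hochberg adjustment and a threshold of 0.05. Of the 42 members tested (Tnnc2 had too few counts), 0 were called, 0 had an unadjusted p under 0.05, and DESeq2 called 0 as well. The lowest adjusted p was 0.611, for Myh4, and the median log2 fold change of the members was -0.91, against 0.01 over all tested genes. Each group held 1 high and 1 low liver, so the overlap of the groups in these members is not read as a result. These values cannot show that the members were alike between treatments, since the spread inside the groups left standard errors of 2.13 to 5.34 on the log2 scale.

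Acta1 averaged 347 ± 491 CPM in baicalein livers and 700 ± 989 CPM in saline livers (SD, n = 2 each), a fitted log2 fold change of -1.01 (SE 4.89, edgeR adjusted p = 0.929). Myh4 averaged 15.2 ± 21.5 CPM in baicalein livers and 777 ± 1098 CPM in saline livers, a log2 fold change of -5.66 (SE 5.34, edgeR adjusted p = 0.611). Every SD exceeded its mean in these genes. Ckm, Myh7, Tnnt1 and Eno3 gave log2 fold changes of -2.11, -0.44, 0.32 and -2.42 (SE 4.34, 3.32, 2.67 and 3.05), with edgeR adjusted p of 0.826, 0.954, 0.959 and 0.707. Fitted folds of genes with libraries at 0 depend on the prior count and are no bound. The median log2 fold change of the members was 0.03 without baicalein 1, -9.78 without baicalein 2, 10.17 without saline 1 and -1.93 without saline 2, with no member called in any of these fits.

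Skeletal muscle genes outside the set lay in the same livers. A list of 49 further muscle genes summed to 731 and 14880 counts in the baicalein livers, against 18870 and 589 in the saline livers. Among its most abundant genes were Des, Srl, Myom1, Csrp3 and Myom2. Des, the intermediate filament of muscle, had 91 and 2033 counts in the baicalein livers and 2565 and 36 in the saline livers, and Myom1, a protein of the M-band at the centre of the sarcomere, had 10 and 861 against 1207 and 14. Csrp3 was unlike them, with 233 and 417 counts in the baicalein livers and 452 and 267 in the saline livers. Fbxo32 (94 and 296, against 187 and 75) and Asb2 (74 and 250, against 266 and 24) also had counts in all livers. Of the 46 tested, 1 was called: Mustn1, a small protein of the musculoskeletal system, had 69 and 144 counts in the baicalein livers and 53 and 32 in the saline livers, a log2 fold change of 1.13 (SE 0.31, edgeR adjusted p = 0.0434), which was not kept without any 1 of the 4 livers (0.0650 to 0.290) or with DESeq2 (0.0839). Sln, an inhibitor of the calcium pump in oxidative and atrial muscle, had 0 and 225 counts in the baicalein livers and 16 and 0 in the saline livers. Sln was singled out after its values were seen.

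Some genes outside the set had nearly the same spread over the livers. For each gene with at least 100 counts, the share of its CPM found in each liver was set against that of the summed members (0.136 and 26.5% in baicalein 1 and 2, 73.2 and 0.148% in saline 1 and 2). The distance was the sum of absolute differences divided by 2, over these 4 libraries. The closest genes were Clcn1 (distance 0.00474), the chloride channel of muscle, and Scn4a (0.00584), its sodium channel. They were followed by Tmod4, Sgca, Rtn2, Tmod1, Sypl2, Hhatl, Stac3, Mypn, 1110002E22Rik, Ank1, Nmrk2, Rpl3l and Asb16, with distances up to 0.0314. Scn4a had 1 and 181 counts in the baicalein livers and 417 and 2 in the saline livers. Of 11467 genes with at least 100 counts, 186 had 95% or more of their CPM in baicalein 2 and saline 1 together. The 25 genes with 95% or more in baicalein 2 alone, such as Dmbt1, pass this rule too. It therefore does not require the members' spread. The 186 held 37 of the 40 members with that many counts, 36 genes of the further muscle list and 113 on neither. Members and list were chosen with earlier results of these data known, so these numbers are a description.

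Genes of muscle precursors and developing fibres were scarce. The list of 11 held 0 and 64 counts in the baicalein livers and 232 and 3 in the saline livers, most of them in Actc1, an actin of heart and developing muscle (0 and 36, against 174 and 3). Myog and Myod1, which drive muscle differentiation, had 0 and 5, and 0 and 10, counts in the baicalein livers, against 25 and 0, and 14 and 0, in the saline livers. Pax7, a stem cell factor, had at most 5 counts in any liver, and the embryonic and neonatal heavy chains Myh3 and Myh8 at most 1. The adult heavy chains Myh1, Myh2 and Myh4 had 608 to 26425 counts in baicalein 2 and saline 1. The lists differ in size, and the members were chosen with their counts known. Sums over the lists therefore cannot give the parts of adult and developing fibres.

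Markers of other tissues were set beside the members. Heart genes stayed near 0, with Nppa and Nppb at 0 in all livers and Myh6 at 0 and 2 counts in the baicalein livers and 0 in both saline livers. The exception was Tnnt2, cardiac troponin T, at 6 and 169 counts in the baicalein livers and 11 and 2 in the saline livers. The 9 smooth muscle genes summed to 16.8 and 333 CPM in the baicalein livers and 71.7 and 21.9 CPM in the saline livers. Of these, Myh11, the smooth muscle heavy chain, had 49 and 2161 counts in the baicalein livers and 112 and 66 in the saline livers, and Acta2 had 58 and 2028 against 222 and 66. Smooth muscle genes were thus highest in baicalein 2, and their part in the values of Tpm2 was not tested. The third most abundant gene of that list, Synpo2, followed the skeletal members instead (6 and 551 counts in the baicalein livers, 550 and 8 in the saline livers).

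Of the 8 fat cell genes, 5 were near 0 in baicalein 1 and saline 2 and had counts in baicalein 2 and saline 1, as the skeletal members did. Adipoq, the hormone adiponectin, had 0 and 42 counts in the baicalein livers and 37 and 0 in the saline livers, and Cfd, the secreted protease adipsin, had 0 and 139 against 113 and 3. Retn had 0 and 26 counts in the baicalein livers and 13 and 0 in the saline livers, Plin1 had 0 and 47 against 10 and 0, and Lep had 0 and 6 against 2 and 0. Cidec and Lipe, which act on stored fat, had counts in all livers (18 and 58, against 107 and 41, for Cidec, and 186 and 245, against 182 and 107, for Lipe). The list's sum, 1253 and 1204 CPM in the baicalein livers and 2231 and 2107 CPM in the saline livers, lay almost wholly in Car3, a carbonic anhydrase abundant in liver (1239 and 1176 CPM in the baicalein livers, 2204 and 2096 CPM in the saline livers, log2 fold change -0.83, SE 0.10, edgeR adjusted p = 0.00115). The genes other than Car3 were named after their values were seen, and the part of fat in the values of the skeletal members was not tested. The 5 mesothelial markers are genes of the membrane that covers liver. They summed to 93 and 281 counts in the baicalein livers and 2 and 30 in the saline livers. Of the 4 tested, 1 was called higher, against 7.65% of all tested genes. This was Lrrn4, with 10 and 45 counts against 0 and 0 (log2 fold change 7.61, SE 1.41, edgeR adjusted p = 0.0133). With both saline livers at 0, its fold depends on the prior count, and its values in the alternative fits are not given here. Epidermal markers summed to at most 3.59 CPM in any liver. Of 6 exocrine pancreas genes, Cpa1, Pnlip, Amy2a5 and Prss2 had no count in any liver, while Ctrb1 had 749 counts in baicalein 2 and none in the other livers.

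**Figure D5:**
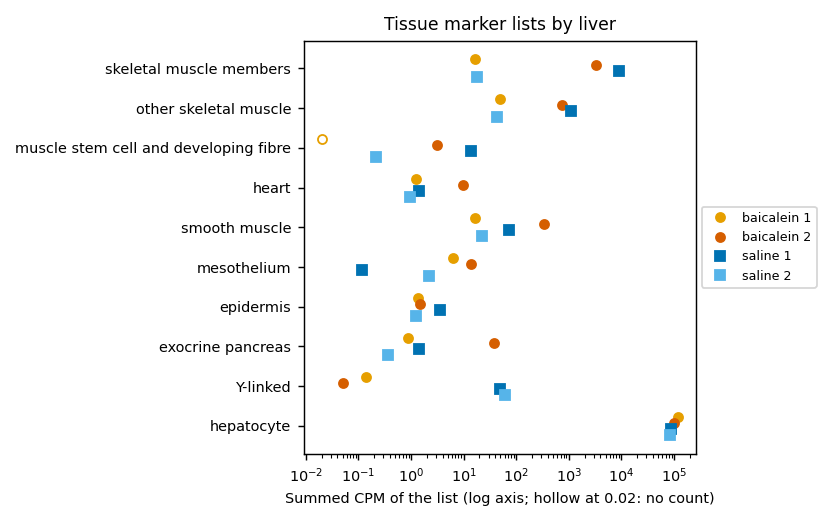
Points give the summed CPM of each marker list on a log axis in the 4 livers (circles for baicalein, squares for saline); a hollow point marks a list with no count, and the fat cell list is not drawn. The skeletal members lie at 3281 CPM in baicalein 2 and 9056 CPM in saline 1, against 16.8 and 18.3 CPM in baicalein 1 and saline 2, whereas smooth muscle and pancreas are highest in baicalein 2, the pancreas list through Ctrb1.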

How the data were processed

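RNA was sequenced from 4 livers, 2 per treatment. A kit gave total RNA, and a SMARTer kit for mRNA the libraries, per the labels' protocols. The genome build named by the submitters' processing notes is mm10, and which aligner, counter and strand setting were used is not stated there. The authors deposited whole-number read counts per gene and FPKM values, and columns were tied to livers by title. All 172 member values of FPKM matched the count to within 1%. Of the 43 members, 1 had the same start and end in the table and in GENCODE M21 (mm10), so positions are those of the table and were not mixed with mm10. The promoter sequences are from RefSeq on GRCm38.p6. The members and all gene lists were chosen with earlier results of these data known.

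Counts were kept with filterByExpr (12657 genes), scaled by TMM (factors 0.985, 1.07, 0.963 and 0.981 for baicalein 1, baicalein 2, saline 1 and saline 2) and tested under R 4.3.3 by the robust quasi-likelihood test of edgeR 4.0.16 (two-sided, Benjamini-Hochberg adjustment over all tested genes, threshold 0.05). The common biological coefficient of variation was 0.289. Each SE is the absolute log2 fold change divided by the square root of the test's F statistic. It is thus back-calculated and, like the fold, depends on the prior count. The fit was also run on simulated counts with the same dispersion for every gene. The members, high in 1 liver of each group only, are unlike that setting, so the run does not check their values. Alternatives were median of ratios size factors, DESeq2 1.42.0, limma-voom (limma 3.58.1), other filters, normalization without muscle genes, blocks and each liver left out. All members are named; folds and p-values are given for members past the threshold and for 6 fixed members, and from other lists the genes of highest mean CPM, of which 1 is not reported here. No table of protein sequences was used here. Deviations of same-numbered livers from their group means ran against each other (correlation -0.771 over tested genes, -0.640 without the listed muscle genes). With 2 livers per group, the opposite pairing gives the same correlation with the sign changed (0.771 and 0.640). The sign follows which livers are alike in their counts. It cannot show whether same-numbered livers were handled as pairs.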

Additional observations from a re-analysis of the deposited data

How the results depend on the processing

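The count of members called between treatments was 0 in every planned fit. It was 24 of 42 with crossed pairs (saline 1 with baicalein 2 as a block), an alternative chosen after seeing the data, in which 3498 genes were called over the table. With the replicate number as a block, 1132 genes were called in place of 1968, and with 1 liver left out 1056 to 1328, on fewer degrees of freedom and with the lone liver of a group assumed to vary like the other group. With 1 liver left out, log2 fold changes ran over -16.37 to 10.17 for Acta1, -14.30 to 12.28 for Ckm, -16.52 to 10.94 for Myh4, -7.36 to 10.22 for Myh7, -4.06 to 4.10 for Tnnt1 and -5.41 to 3.09 for Eno3, none of them called. Myh7 also changed sign with limma-voom (0.66). Summed member CPM without TMM was 3510 in baicalein 2 and 8716 in saline 1. As summed FPKM scaled to the library's FPKM total, it was 4326 and 9847. Without the members used outside muscle it was 5.71 and 2888 CPM in baicalein 1 and 2, against 7964 and 9.77 CPM in saline 1 and 2. The fast share in baicalein 2 and saline 1 was 93.7% and 98.7% without Mybpc1, 87.8% and 96.8% over the 7 pairs, and 90.0% and 97.6% by counts, so its order held in each. The median ratios within groups stayed between 15.8 and 27.8 for baicalein and between 41.0 and 98.8 for saline. With 20 members at 0 in baicalein 1 and saline 2, depth limits what can be said of them there to 3 counts.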

Other observations

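With at least 100 counts and 95% or more of the CPM in 1 liver, 25 genes were found for baicalein 2, 1 for saline 1 (Myh4) and none for baicalein 1 or saline 2. Those of baicalein 2 were led by Dmbt1, a mucosal scavenger protein, with 34630 counts, against 1 in baicalein 1, 2 in saline 1 and 1 in saline 2. The membrane mucin Muc3 had 1933 counts and the secreted lectin Reg1 had 462, with none in the other livers. Actg2, a smooth muscle actin, had 455 counts, against 6 in baicalein 1, 3 in saline 1 and 1 in saline 2. Slc26a3, an anion exchanger of intestinal epithelium, had 204 counts there and none elsewhere, and Cckar, a cholecystokinin receptor, had 157 and none elsewhere. These 25 genes held 42973 counts in baicalein 2, and 0 of them were members or on the further skeletal muscle list. They were picked by their values, and their relation to the muscle counts of that library was not tested.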
